A study of Homo sapiens with 17 samples.

Results

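Of 15982 baited HindIII fragments in the promoter-capture Hi-C (PCHi-C) interaction lists of human pluripotent stem cells (PSCs), 5 carry a promoter of NKX2-3, PAX2, TLX1 or LBX1, which are 4 homeobox or paired-box genes within 1.7 Mb of chromosome 10. PCHi-C enriches a library of ligated chromatin contacts for fragments with gene promoters (baits), and each bait is then listed with the fragments it contacts (partners). The interaction lists mark fragments with a sign and hold no gene names. Baits in a window of 3 Mb from 99 Mb were therefore assigned to a gene where they overlap a GENCODE release 44 transcript start or the 1000 bp upstream of it, which took 5 of the 49 baits in that window. NKX2-3 had 2 neighbouring baits, an upstream bait (chr10:99528044-99532471, shared with the promoter of the non-coding LINC01475) and a promoter bait (chr10:99532472-99538467) that holds the transcript start. PAX2 had 1 bait (chr10:100733128-100743939), as had TLX1 (chr10:101130164-101147121, shared with TLX1NB) and LBX1 (chr10:101207057-101234418, shared with LBX1-AS1). All coordinates are GRCh38.

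The cells are the embryonic stem cell line H9, NK2 subline, held in a naive or a primed state at 5% O2 and 5% CO2. Naive PSCs grew on Matrigel in t2iL+PKCi medium, which contains the MEK inhibitor PD0325901, the GSK3 inhibitor CHIR99021, LIF and the PKC inhibitor Go6983. Primed PSCs grew on Vitronectin in TeSR-E8 medium. Both states come from 1 line, and medium and coating differ together with the state, so that these cannot be told apart. PCHi-C was deposited as 1 combined list per state from 2 replicates, Hi-C as 1 library per state, and H3K4me1, a histone mark of enhancers and promoter flanks, as 2 naive and 3 primed CUT&RUN libraries.

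NKX2-3 is a homeodomain factor of gut and spleen development, and PAX2 is a paired-domain factor of kidney, eye and ear. TLX1 directs formation of the spleen and can act as a leukaemia oncogene, and LBX1 acts in migrating muscle precursors and dorsal spinal cord neurons. As general background, genes of this kind are held silent in primed pluripotent cells by Polycomb complexes, and the CpG-rich promoters they carry can contact each other over large distances.

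The promoter sequences are shown because the baits were chosen by them. Each runs from 250 bases before to 50 bases after the RefSeq start (GRCh38.p14), 5′ to 3′ on the plus strand, which is the coding strand of these genes, with every CG dinucleotide in capitals. The sequences lie at chr10:99532692-99532991 (NKX2-3), chr10:100735146-100735445 (PAX2, the start inside the bait), chr10:100745332-100745631 (PAX2, a later start beyond the bait) and chr10:101131050-101131349 (TLX1). The later PAX2 start is that of the canonical transcript in GENCODE, so the PAX2 bait holds an alternative start. LBX1 is named only.
NKX2-3 promoter: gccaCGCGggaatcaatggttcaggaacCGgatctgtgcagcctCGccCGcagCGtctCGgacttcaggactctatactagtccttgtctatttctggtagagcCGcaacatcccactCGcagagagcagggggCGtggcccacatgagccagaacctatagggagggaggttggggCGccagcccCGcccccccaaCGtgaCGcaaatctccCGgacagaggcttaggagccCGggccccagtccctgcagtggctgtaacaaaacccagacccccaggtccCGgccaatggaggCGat
PAX2 promoter, first start: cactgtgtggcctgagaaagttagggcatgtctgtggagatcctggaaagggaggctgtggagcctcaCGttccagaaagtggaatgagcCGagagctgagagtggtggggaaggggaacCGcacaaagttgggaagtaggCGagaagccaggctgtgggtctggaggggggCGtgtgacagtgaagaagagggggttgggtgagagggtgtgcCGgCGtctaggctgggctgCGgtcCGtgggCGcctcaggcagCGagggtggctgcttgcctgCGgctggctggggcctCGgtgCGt
PAX2 promoter, later start: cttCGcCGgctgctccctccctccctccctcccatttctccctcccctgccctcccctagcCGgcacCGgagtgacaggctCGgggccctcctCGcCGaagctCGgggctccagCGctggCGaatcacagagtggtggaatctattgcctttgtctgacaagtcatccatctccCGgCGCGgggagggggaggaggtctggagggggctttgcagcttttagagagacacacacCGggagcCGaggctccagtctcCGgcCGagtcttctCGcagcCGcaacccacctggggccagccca
TLX1 promoter: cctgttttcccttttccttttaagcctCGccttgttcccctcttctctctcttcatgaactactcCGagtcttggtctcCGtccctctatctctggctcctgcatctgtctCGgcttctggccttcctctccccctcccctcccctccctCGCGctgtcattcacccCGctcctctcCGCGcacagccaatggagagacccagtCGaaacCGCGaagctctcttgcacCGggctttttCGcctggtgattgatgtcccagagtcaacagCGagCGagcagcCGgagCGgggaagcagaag
The NKX2-3 promoter held 18 CG dinucleotides, the TLX1 promoter 18 and the PAX2 promoters 14 and 19, beside a median of 14 over 35116 RefSeq promoters of the same length. Of these promoters 55.5% held fewer than NKX2-3 and TLX1, and 49.7% and 57.1% fewer than the PAX2 windows. The 4 windows thus lie near the middle of all promoters. CCAAT, searched on both strands, occurred 1 time in the NKX2-3 and 1 time in the TLX1 promoter and was absent from both PAX2 windows, and 34.6% of the promoters hold it. GGGCGG, searched in the same way, occurred 1 time in the NKX2-3 promoter and is held by 45.0% of promoters. TATAAA was in none of these 4 windows and is held by 11.5%.

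The lists held 79330 interactions in naive and 88985 in primed PSCs. The Hi-C libraries held 31310843 and 52056334 contacts, and the CUT&RUN libraries 9.50 M to 37.5 M reads in tiles of 500 bp. As a check of the labels, H3K4me1 at the bait of the naive marker DPPA5 was lower and at that of the primed marker DUSP6 higher in primed PSCs. Of 12 marker genes 3 passed the filter on low values, and the other tested one, a primed marker, was not called.

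NKX2-3, PAX2 and TLX1 had more interactions in primed than in naive PSCs, with the largest difference at NKX2-3, and LBX1 had not. The upstream bait of NKX2-3 had 2 interactions in naive and 52 in primed PSCs, and the promoter bait had 3 and 51. TLX1 went from 1 to 16 interactions and PAX2 from 7 to 15. LBX1 had 5 interactions in naive and 4 in primed PSCs. So 4 of the 5 baits, those of NKX2-3, PAX2 and TLX1, had at least 2 times as many interactions in primed as in naive PSCs with at least 5 in primed, as had 13.6% of all baits. The median bait had 3 interactions in each state. With 1 list per state these counts have no replicate check, and no test between states was possible.

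**Figure D1:**
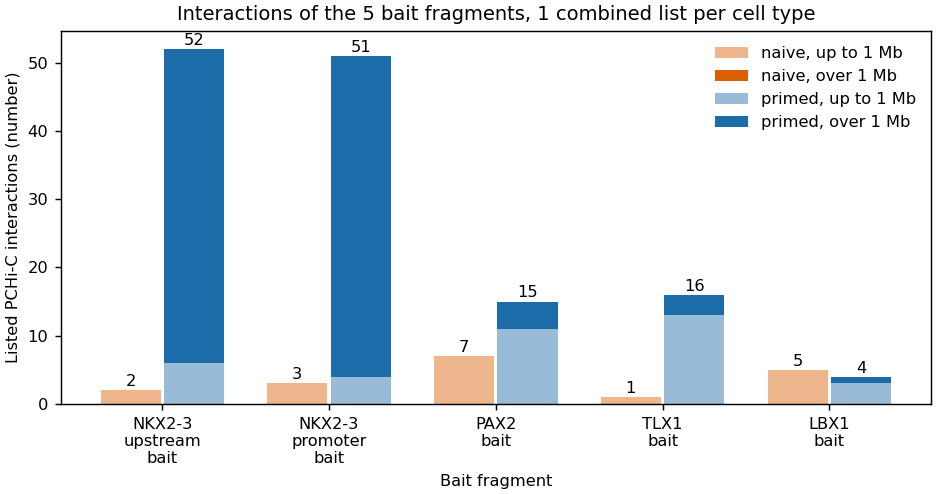
Number of listed PCHi-C interactions (vertical axis) of each of the 5 bait fragments in naive (orange) and primed (blue) PSCs, with interactions up to 1 Mb in pale and over 1 Mb in full colour. The NKX2-3 baits stand at 52 and 51 in primed PSCs, nearly all over 1 Mb, and no naive bar has a part over 1 Mb.

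Counted once where both ends are members, the 5 baits had 18 interactions in naive and 131 in primed PSCs, and 2 of them were in both lists. None was over 1 Mb in naive PSCs, where the longest spanned 452 kb. In primed PSCs 96 were over 1 Mb, 73.3% of the total (95% Wilson interval 65.1 to 80.1, which covers counting error only). By bait these were 46 and 47 for the NKX2-3 upstream and promoter baits, 4 for PAX2, 3 for TLX1 and 1 for LBX1. All 5 baits thus had contacts over 1 Mb in primed and none in naive PSCs, a pattern shown by 7.3% of all baits. By the number of such contacts in primed PSCs, the NKX2-3 promoter bait ranked 5 and the upstream bait ranked 6 of 15982 baits. PAX2, TLX1 and LBX1 ranked 394, 475 and 838. The contacts over 1 Mb of PAX2, TLX1 and LBX1 were all with the NKX2-3 baits or fragments beside them. The 5 baits thus share these contacts and are not separate cases to set beside 7.3%.

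The members contacted each other in primed PSCs. In these cells 7 of the 8 pairs of member baits that lie 400 to 1690 kb apart were listed, and these join 5 of the 6 pairs of genes. None of the 8 was listed in naive PSCs. Of all 169562 pairs of baits at the same range of distances, 1.6% were listed in primed and 1.15% in naive PSCs. The 8 pairs are not independent, since both NKX2-3 baits are neighbours and each gene enters several pairs.

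The link with the highest score joined NKX2-3 and TLX1, with a CHiCAGO score of 44.8 and 28 reads from the promoter bait and a score of 35.6 and 23 reads from the upstream bait, over 1603 and 1608 kb. The CHiCAGO score is minus the log of a weighted p-value against the background at that distance, and 5 is the least score listed. NKX2-3 and PAX2 were joined over 1203 kb from the promoter bait, with a score of 36.5 and 41 reads. The upstream bait joined PAX2 with a score of 34.5 and 34 reads. These 4 links scored 34.5 to 44.8 and every other link between members scored under 20.

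PAX2 and TLX1 were joined over 400 kb with a score of 18.4 and 27 reads. PAX2 and LBX1 were joined over 482 kb with a score of 8.32 and 16 reads, the lowest score of the 7 links. The best-scoring contact of PAX2 outside the members' baits was the neighbour of the TLX1 bait (chr10:101124857-101129755), with 45 reads and a score of 21.6. LBX1 and the NKX2-3 upstream bait were joined over 1690 kb with a score of 18.8 and 13 reads. The NKX2-3 promoter bait was not listed with the LBX1 bait, but it was listed with the next fragment (chr10:101234419-101238207, at the promoter of LBX1-AS1), with a score of 29.8 and 21 reads. TLX1 and LBX1, neighbours 82.1 kb apart, were not listed together in either state.

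**Figure D2:**
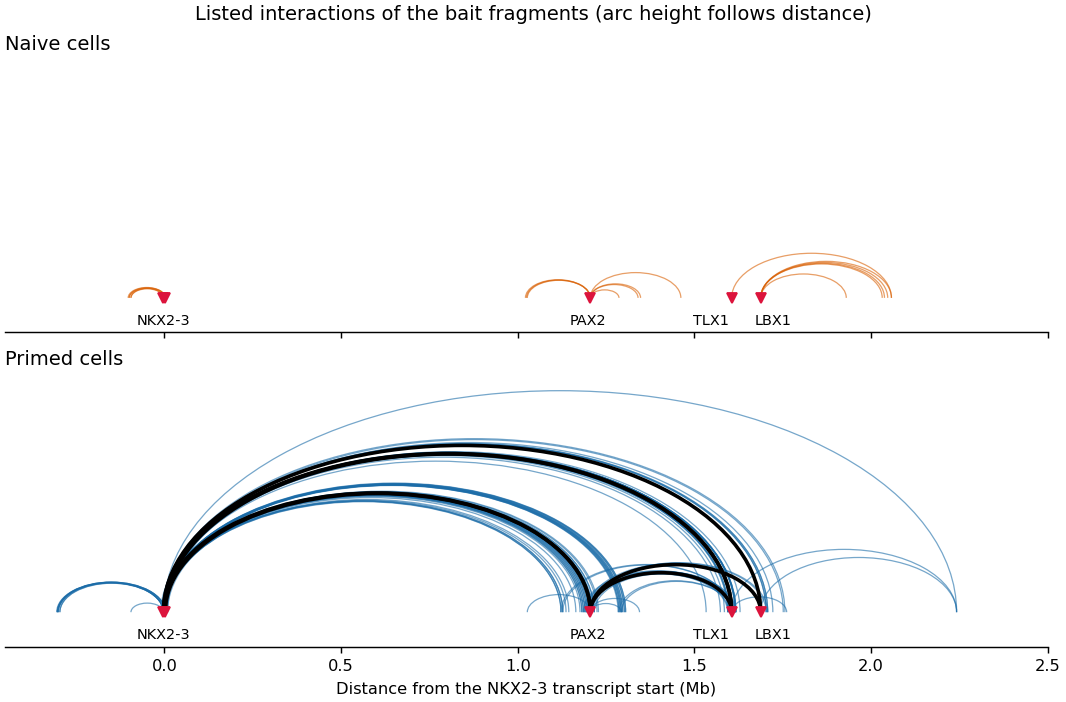
Arcs join the 2 ends of each listed interaction along chromosome 10, drawn by distance from the NKX2-3 transcript start in Mb (horizontal axis), for naive (orange, upper) and primed (blue, lower) PSCs. Red marks are the 5 baits and black arcs join 2 of them, which are 7 in primed and 0 in naive PSCs, and partners more than 2.5 Mb away are not drawn.

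The members also shared partners in primed PSCs. Their baits contacted 76 fragments, other members included, and 39 of these were contacted by at least 2 baits, 20 by at least 3 baits and 23 by baits of at least 2 of the genes. In naive PSCs they contacted 15 fragments, of which 3 were contacted by 2 baits and 1 by baits of 2 genes (TLX1 and LBX1). In primed PSCs 5 fragments were contacted by 3 of the genes. Among these, chr10:100725257-100729370, 6.0 kb upstream of PAX2 with no annotated gene, was contacted from both NKX2-3 baits and from TLX1 and LBX1, with 67 reads in all. A fragment with an exon in the distal part of PAX2 (chr10:100824950-100827639) was contacted from both NKX2-3 baits, PAX2 and TLX1, with 71 reads.

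FGF8, a secreted growth factor that patterns limb, brain and pharyngeal arches, was the partner that 3 of the genes had in common without being a member or lying beside one. Its bait (chr10:101773558-101776901) was contacted in primed PSCs from TLX1 with 18 reads and a score of 12.6, from LBX1 with 15 reads and a score of 5.98, and from the NKX2-3 upstream bait with 7 reads and a score of 7.3. None of these interactions was listed in naive PSCs. The other fragments shared by 3 genes were the PAX2 bait and the NKX2-3 upstream bait themselves.

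The interactions of NKX2-3 in primed PSCs fell into a few blocks of neighbouring fragments. Both baits together had 69 partners, and 34 of these were partners of both. Blocks were formed by joining partners with gaps of up to 40 kb, after the positions had been seen. The block at PAX2 and upstream of it (chr10:100653288-100762776) took 26 interactions with 16 fragments, and a second block at the distal end of PAX2 (chr10:100816389-100839410) took 13 with 7 fragments. The block at TLX1 (chr10:101060342-101163902) took 17 interactions with 11 fragments and that at LBX1 (chr10:101207057-101290012) took 8 with 6 fragments. A nearer block on the other side, at the 5′ end of HPSE2 (chr10:99227159-99240818), took 9 interactions 293 to 306 kb away.

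Farther out, NKX2-3 was listed with developmental regulators on the same arm at up to 30.4 Mb. The promoter bait contacted the baits of VAX1 (17.6 Mb), EMX2 (18.0 Mb) and HMX3 (23.6 Mb), homeobox genes of forebrain and inner ear, with 5 reads each and scores of 10.6, 12.8 and 9.45. The upstream bait contacted unbaited fragments with promoters of HHEX (6.8 Mb, 4 reads) and EBF3 (30.4 Mb, 3 reads). With their neighbouring fragments, the blocks at VAX1, EMX2 and HMX3 took 13, 10 and 3 interactions. The 28 interactions of NKX2-3 over 5 Mb rest on 3 to 5 reads each, and none of them had 10 reads, whereas 38 of the 65 between 1 and 5 Mb did.

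**Figure D3:**
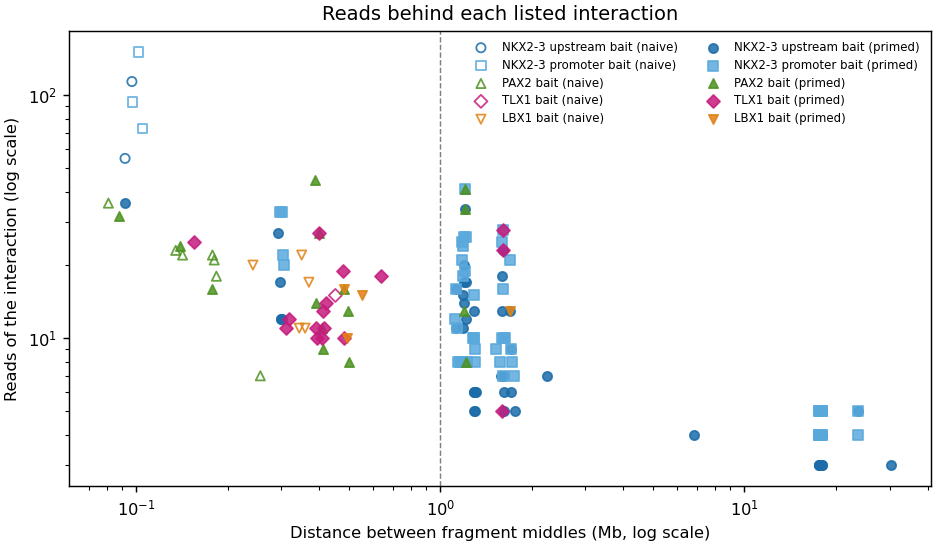
Reads behind each listed interaction (vertical axis, log scale) against the distance between fragment middles in Mb (horizontal axis, log scale), by bait (marker and colour), open for naive and filled for primed PSCs. The dashed line is at 1 Mb, with filled points alone beyond it, and the points over 5 Mb are those of NKX2-3 with 3 to 5 reads.

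In naive PSCs the baits contacted nearby fragments, many of them at broadly expressed genes. NKX2-3 contacted the bait of GOT1, an aspartate aminotransferase, with 151 reads and a score of 7.45 from the promoter bait and 114 reads and a score of 6.87 from the upstream bait, at most 102.1 kb away. The highest naive score of NKX2-3, 9.34 with 94 reads, was with the fragment behind it (chr10:99435944-99440629). From the upstream bait this fragment was in both lists, with 55 reads in naive and 36 in primed PSCs. TLX1 had a single naive partner, the bait of DPCD and POLL (452 kb, 15 reads, score 8.07), which LBX1 also contacted (370 kb, 17 reads, score 5.47).

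LBX1 contacted a fragment inside BTRC with 20 reads and a score of 9.01, the bait of DPCD with 22 reads and a score of 7.78, and a further POLL fragment with 11 reads and a score of 5.88. PAX2 contacted 3 fragments in HIF1AN, the best with a score of 7.2 and 22 reads, and the bait of LZTS2 with 7 reads and a score of 6.71. From PAX2 a fragment in its own gene (chr10:100817803-100821414, 36 reads, score 5.5) was listed in naive PSCs alone. NKX2-3 and TLX1 contacted that fragment in primed PSCs. Fragments outside annotated genes at chr10:100871918-100875174 and chr10:100879777-100881708 were likewise listed with PAX2 in naive PSCs alone. The HIF1AN contact with the best score was also listed in primed PSCs (16 reads, score 5.17). The other named naive contacts, with GOT1, DPCD, POLL, BTRC and LZTS2, were not, as exact fragment pairs at a score of at least 5. The fragment behind the GOT1 bait stayed listed with the NKX2-3 upstream bait (36 reads, score 6.34 in primed PSCs). With ends within 10 kb counted as shared, more naive interactions were common to both lists, as given at the end.

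Of a list of 20 developmental regulators on chromosome 10, 18 had a promoter on a fragment of the lists, and 6 (HHEX, FGF8, VAX1, EMX2, HMX3 and EBF3) were contacted by a member in primed and 0 in naive PSCs. Of 23 broadly expressed genes of the region, 21 had such a promoter, and 3 (GOT1, LZTS2 and POLL) were contacted in naive and 0 in primed PSCs. BTRC and HIF1AN were contacted inside the gene and not at a promoter. Both lists were drawn up with earlier results of these data known, and the first spans the chromosome but the second only the region. Promoters of HPSE2 and KAZALD1, regional genes in neither list, were contacted from NKX2-3 in primed PSCs. The counts thus describe these lists and were not tested against other promoters. Fragments contacted in primed PSCs, other members left out, had a median GC content of 48.5% (n = 71), beside 41.0% over the 61642 fragments contacted by any bait. Naive partners had 47.2% (n = 15) beside 42.1% over 56932. The partners of primed PSCs had a median of 1.8 CG per 100 bp and those of naive PSCs 1.39, beside 0.87 and 0.95.

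Hi-C, which has no capture step, was read for the same contacts in bins of 100 kb in the primed library. The paper prepared PCHi-C by capture from Hi-C library DNA, so both assays may not be independent. NKX2-3 and PAX2 had 31 contacts, 1.59 times the mean of chromosome 10 pairs at 1.2 Mb (95% Poisson interval 1.08 to 2.25), with 81.0% of the 1286 pairs lower. NKX2-3 and TLX1 had 19 contacts, 1.63 times the mean (0.98 to 2.55). NKX2-3 and LBX1 had 8 contacts, 0.79 times (0.34 to 1.55). So NKX2-3 with PAX2 was the one pair of the 6 above its mean beyond counting error without correction for coverage.

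PAX2 and TLX1 had 86 contacts (0.91 times the mean, interval 0.72 to 1.12), and PAX2 and LBX1 had 47 (0.65 times, 0.48 to 0.86). TLX1 and LBX1, in neighbouring bins, had 204 (0.52 times, 0.45 to 0.59). The bins of the 4 genes were thinly covered, with 0.43 to 0.6 times the contacts of the median bin. After balancing by iterative correction all 6 ratios were above 1, at 4.2 (NKX2-3 with PAX2), 3.43 (with TLX1) and 2.93 (with LBX1), and 1.54, 2.0 and 1.23 for PAX2 with TLX1, PAX2 with LBX1 and TLX1 with LBX1. The 4 pairs other than NKX2-3 with PAX2 and with TLX1 thus went from below to above their mean with this correction. As the mean of 3 by 3 bins, without balancing, NKX2-3 with PAX2 was at 1.03, NKX2-3 with TLX1 at 0.7 and NKX2-3 with LBX1 at 1.12.

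**Figure D4:**
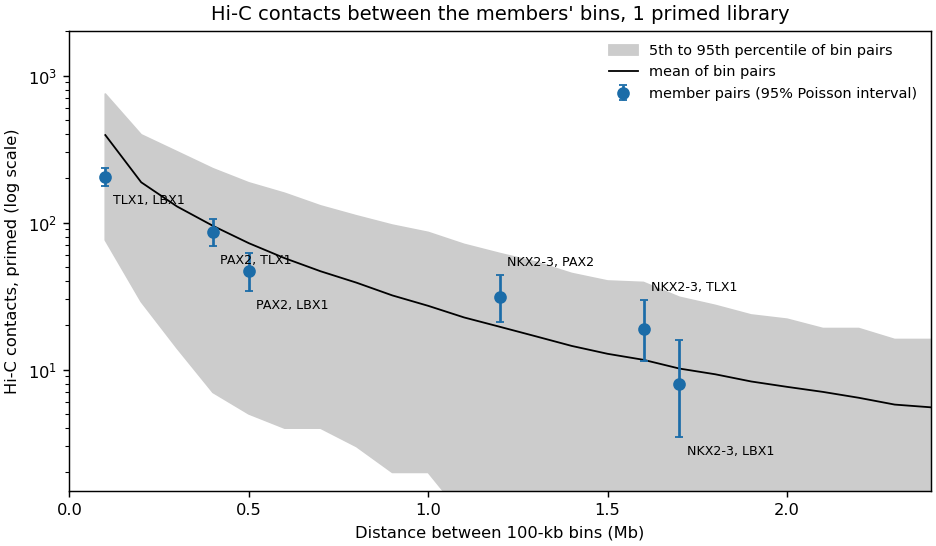
Hi-C contacts of the primed library (vertical axis, log scale) against the distance between 100 kb bins in Mb, for the 6 pairs of member bins (points with 95% Poisson intervals), with the mean (line) and the 5th to 95th percentile (grey) of all chromosome 10 pairs, before balancing. NKX2-3 with PAX2 (31 contacts) and with TLX1 (19) lie above the line, and the other 4 pairs lie below it.

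The far contacts of NKX2-3, with genes that PCHi-C had listed, were read in the same library. The bins of NKX2-3 and EMX2 had 9 contacts where the mean at 18.0 Mb was 0.49, a ratio of 18.4 (interval 8.44 to 35.0), and none of the 1105 pairs at that distance had more. The bins of NKX2-3 and VAX1 had 4 contacts where the mean was 0.51, a ratio of 7.78 (2.12 to 19.9). None of 1109 pairs had more and 99.5% had fewer, so some other pairs had as many. After balancing the ratios with EMX2 and VAX1 were 28.5 and 10.3. HMX3 and EBF3 had 1 contact each with NKX2-3 and HHEX had 2, and their intervals include the mean (4.54, 7.06 and 3.04 times the mean after balancing). FGF8 had 4 contacts with NKX2-3, 62 with TLX1 and 27 with LBX1, which were 0.62, 1.08 and 0.37 times the means, and 1.61, 1.89 and 1.15 times after balancing, so that the direction for NKX2-3 and LBX1 turned.

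The naive Hi-C file lists 10596 pairs of bins of chromosome 10 and the primed file 222480, and 2 of the 6 member pairs were in the naive one. TLX1 and LBX1 had 201 contacts in the naive library, which is smaller as a whole, beside 204 in the primed one, and PAX2 and TLX1 had 20 beside 86. None of the 3 pairs of NKX2-3 was listed. At the distances of these 3 pairs, 157, 50 and 37 pairs of chromosome 10 were listed, out of over 1300 each, so absence there sets no upper limit.

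H3K4me1 over whole bait fragments did not pass the test between states. Of the 5 baits, 3 passed the filter (a mean over 0 log2 RPM in 2 or more libraries), and none of these reached an adjusted p of 0.05 in limma or in edgeR on the recovered reads, beside 21.5% of 7781 fragments tested that were higher in primed and 32.9% that were lower. At an unadjusted p of 0.05 limma called 1 of the 3, the NKX2-3 upstream bait. The values of this bait were 0.94 and 0.28 log2 RPM in the naive and 0.22, −0.62 and −0.58 in the primed libraries. Its primed libraries were below both naive ones, with a difference of −0.93 ± 0.39 (SE) in log2 RPM (limma, adjusted p = 0.0693), and without primed replicate 1 the difference was −1.21 (adjusted p = 0.0145).

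The NKX2-3 promoter bait had 0.52 and 0.18 log2 RPM in the naive and 0.43, 0.16 and 0.22 in the primed libraries. The PAX2 bait had −0.23 and 0.22 in the naive and −0.05, 0.25 and 0.09 in the primed libraries. At both baits the states overlapped, with differences of −0.08 and 0.1 (limma, adjusted p = 0.853 and 0.812). The TLX1 bait had −0.78 and −0.15 in the naive and −0.19, −0.14 and −0.11 in the primed libraries, and the LBX1 bait −0.19 and −0.25 in the naive and −0.45, −0.04 and −0.44 in the primed libraries. They were under the filter, and in a fit without it they differed by 0.32 and −0.09 (adjusted p = 0.652 and 0.933). Over all fragments tested the median difference was −0.29, and with libraries centred on their median it was −0.02, with 30.0% of fragments called higher and 31.0% lower.

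Within the baits, single 500 bp tiles showed changes in both directions. Of 133 tiles over the 5 baits, 95 passed the filter, and 6 (6.32%) were higher and 7 (7.37%) lower in primed PSCs, beside 25.9% and 26.1% of 465156 tiles. The member baits thus had smaller shares of called tiles than the tiles of the genome. A tile can pass the filter through 1 state alone, and such a tile had to differ to be tested, so the tested tiles are not all tiles. The PAX2 bait had no called tile among 14 tested and the NKX2-3 promoter bait none among 13 by limma. The PAX2 tiles all lie upstream of the canonical PAX2 start and do not cover it. In edgeR on the reads, 11 tiles over all 5 baits were called lower in place of 7.

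At NKX2-3 the change lay in the first 4 tiles of the upstream bait (chr10:99528001-99530000), 2.9 to 4.4 kb upstream of the gene and within LINC01475. The tile at chr10:99529001-99529500 had 37 and 7 reads in the naive and 2, 1 and 6 in the primed libraries, or 0.76 and 0.05 against −2.15, −2.98 and −2.15 log2 RPM. It was lower in primed PSCs, with a difference of −2.83 ± 0.59 (SE; limma, adjusted p = 0.00117). The tile before it had 29 and 7 reads in the naive and 3, 1 and 3 in the primed libraries, with a difference of −2.8 (adjusted p = 0.00163). The other 2 differed by −1.44 and −1.85, and the 5 tiles nearer to the gene were not called. At these 4 tiles all naive libraries stood above all primed ones. Over the 95 tested tiles the primed libraries were all above the naive ones in 24 and all below in 21, beside 32.4% and 35.0% of all tiles tested.

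At TLX1, 6 tiles rose and 2 fell. The tiles at chr10:101132001-101133500, inside the gene, rose by 1.51, 2.08 and 1.75 in log2 RPM. The middle one (chr10:101132501-101133000) had −1.64 and −0.43 log2 RPM in the naive and 1.1, 1.02 and 1.02 in the primed libraries (limma, adjusted p = 0.00266), from 7 and 5 reads against 19, 16 and 54. Downstream of the gene, chr10:101139501-101140000 had −0.28 and −0.17 in the naive and 1.55, 1.48 and 1.1 in the primed libraries, a rise of 1.6 (adjusted p = 0.00387), and 2 tiles near it rose by 1.75 and 1.4.

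The far end of the TLX1 bait went the other way. The last tile (chr10:101147001-101147500), which runs into the next fragment, had 65 and 22 reads in the naive and 8, 5 and 26 in the primed libraries, or 1.58 and 1.71 against −0.15, −0.66 and −0.03 log2 RPM, a difference of −1.92 (limma, adjusted p = 0.00188). The tile before it fell by 1.35. At LBX1 a single tile, chr10:101220001-101220500, 6.5 kb beyond the end of the gene, was lower in primed PSCs, with a difference of −1.44 (limma, adjusted p = 0.0362).

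Of the 13 called tiles, 5 stayed past the threshold under every alternative run and with each library left out, and these are the 5 whose read or log2 RPM values are given for NKX2-3 and TLX1. Without naive replicate 1, 8 of the 13 were no longer called, and without naive replicate 2, primed replicate 1, primed replicate 2 or primed replicate 3 this held for 5, 2, 2 and 7. The LBX1 tile was among those lost, with a difference of −1.62 without naive replicate 1. The 5 tiles that stayed had all passed the filter through 1 state alone. They thus had to differ to be tested, and their staying called adds no support.

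**Figure D5:**
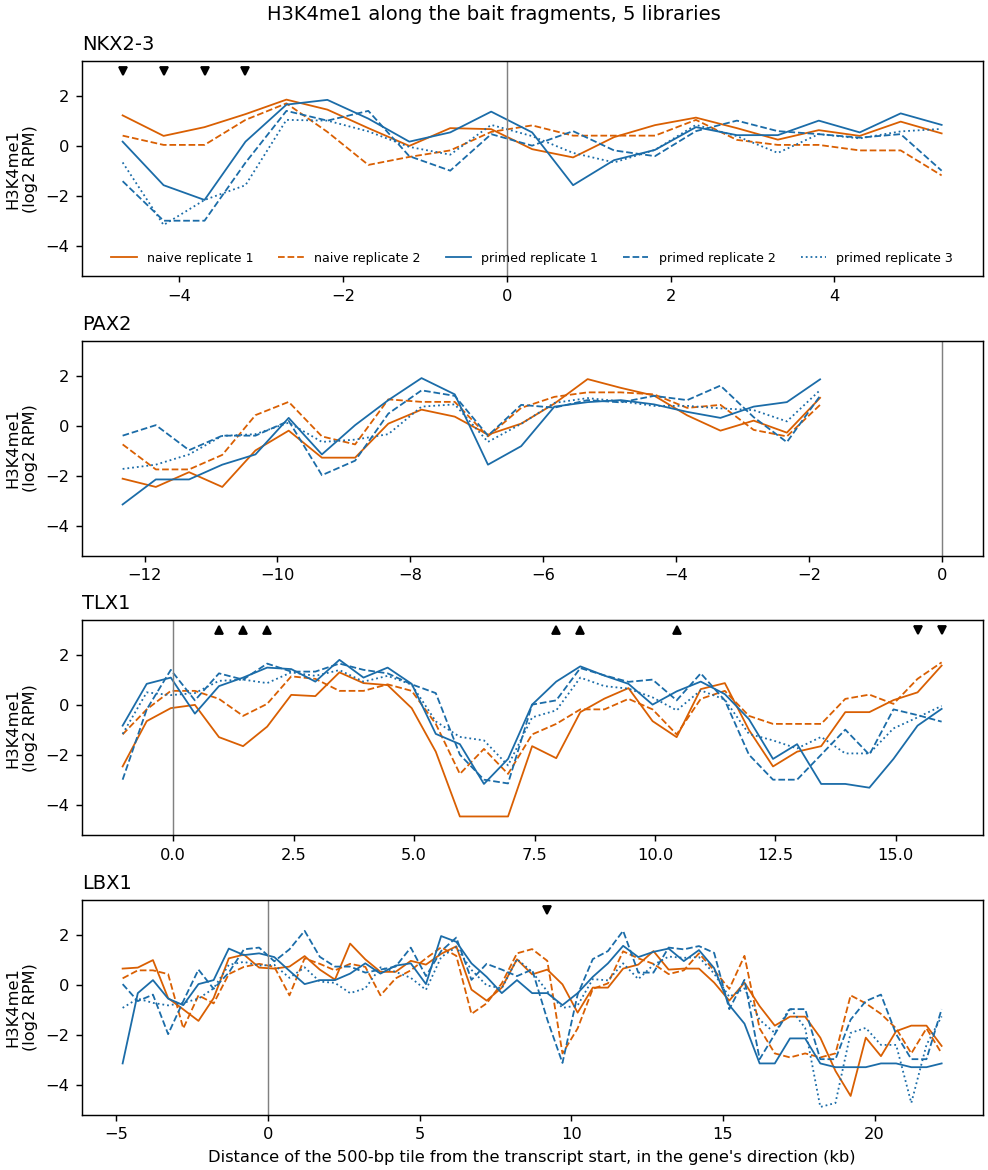
H3K4me1 in log2 RPM (vertical axis) of each 500 bp tile over the bait fragments of NKX2-3, PAX2, TLX1 and LBX1, against its distance in kb from the transcript start (grey line) in the direction of the gene, for 2 naive (orange) and 3 primed (blue) libraries. Triangles mark tiles called higher (up) or lower (down) in primed PSCs, which are 4 down at NKX2-3, 0 at PAX2, 6 up and 2 down at TLX1 and 1 down at LBX1.

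At the partners, H3K4me1 changed in some of the fragments contacted in primed PSCs. Of 83 partners that are not members, 14 passed the filter, all from the primed list. Of these 14, 5 (35.7%) rose and 1 (7.14%) fell, beside 21.5% and 32.9% of all fragments tested. Of those that rose, 4 were over the filter in primed libraries alone, and the one that fell in naive libraries alone, so these fragments had to differ to be tested and the counts describe the 14 and not all partners. In 9 of the 14 the primed libraries were all above the naive ones and in 1 all below, beside 27.6% and 41.2% of all fragments tested. Of 259 tiles tested over all partners, 65 (25.1%) were higher in primed and 16 (6.18%) lower, beside 25.9% and 26.1% of all tiles. Without naive replicate 2 these counts were 33 and 3. In a fit of all fragments without the filter, the median difference was 0.37 over the 68 partners of the primed list alone, 0.43 over the 12 of the naive list alone and −0.06 over all 88413 fragments.

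Among the partners that passed the filter, the largest rise was at a fragment of HPSE2 (chr10:99232142-99233375), contacted from both NKX2-3 baits. It had −2.63 and −1.7 log2 RPM in the naive and 0.63, 0.28 and 0.42 in the primed libraries, a difference of 2.61 ± 0.37 (SE; limma, adjusted p = 0.000446). A partner under the filter, in MIR3663HG beside VAX1 (chr10:117158067-117158879), had −2.78 and −2.91 log2 RPM in the naive and −0.08, −0.32 and −0.23 in the primed libraries. In the fit without the filter it differed by 2.63 (limma, adjusted p = 3.38e-08). Its 2 tiles held 7 and 0 reads in the naive and 19, 14 and 48 in the primed libraries. The −2.91 is the value of an empty tile in naive replicate 2, so this difference depends on the floor. The fragment that follows the one in HPSE2 and holds the HPSE2 promoter was higher in primed PSCs in 8 of its 9 tested tiles. HPSE2 encodes heparanase 2, a heparan sulfate-binding protein. The middle 300 bases of the HPSE2 fragment first described are shown because it changed most of the partners that passed the filter (chr10:99232609-99232908, in an intron of HPSE2, GRCh38, plus strand, CG in capitals).
HPSE2 partner: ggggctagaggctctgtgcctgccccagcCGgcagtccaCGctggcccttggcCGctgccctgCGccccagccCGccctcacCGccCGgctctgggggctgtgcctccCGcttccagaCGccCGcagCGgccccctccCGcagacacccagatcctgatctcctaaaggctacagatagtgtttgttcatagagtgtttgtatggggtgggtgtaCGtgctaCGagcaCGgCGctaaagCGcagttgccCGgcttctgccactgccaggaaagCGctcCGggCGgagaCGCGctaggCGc
These bases held 24 CG dinucleotides.

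Next was a fragment in an intron of PAX2 (chr10:100816389-100817802), contacted from the NKX2-3 upstream bait, with −1.8 and −2.36 log2 RPM in the naive and 0.11, 0.16 and 0.11 in the primed libraries, a rise of 2.2 (limma, adjusted p = 0.000491). A fragment in MIR3663HG beside VAX1 (chr10:117158880-117162641), contacted from both NKX2-3 baits, had −1.64 and −2.1 in the naive and 0.07, −0.38 and 0.02 in the primed libraries, a rise of 1.77 (adjusted p = 0.00176). In these 3 fragments every primed library stood above both naive ones. The other 2 that rose were a partner of PAX2 downstream of it (chr10:100876660-100878858, by 1.62, adjusted p = 0.00593) and a partner of NKX2-3 1.3 kb from HMX2 (chr10:123144540-123146846, by 0.94, adjusted p = 0.0297). These 2 lost the call in some alternatives, the first without naive replicate 2 (adjusted p = 0.0569) and the second without naive replicate 1 (0.17), naive replicate 2 (0.162) or primed replicate 3 (0.0769), with the replicate block (0.0633) and without the filter (0.0713).

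The fragment that fell (chr10:101147122-101149433) lies next to the TLX1 bait, 9.3 kb beyond the end of TLX1, and was contacted from both NKX2-3 baits and PAX2 in primed PSCs. It had 0.78 and 0.63 log2 RPM in the naive and −1.38, −1.51 and −1.18 in the primed libraries, a difference of −2.06 ± 0.31 (SE; limma, adjusted p = 0.000573), and all 4 of its tested tiles were lower. The first of these tiles (chr10:101147001-101147500) is also the last tile of the TLX1 bait and was counted for both.

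At FGF8 the libraries did not overlap, with −0.51 and −0.45 log2 RPM in the naive and 0.23, 0.28 and 0.12 in the primed libraries, but the difference of 0.69 did not pass limma (adjusted p = 0.0789). It passed with libraries centred on their median (adjusted p = 0.0195) and in edgeR (0.00146). The partner with the highest level in the naive libraries was a short fragment in an intron of PAX2 (chr10:100743940-100744273), between the PAX2 bait and the later PAX2 start, contacted from both NKX2-3 baits and from TLX1. It had 0.94 and 1.04 log2 RPM in the naive and 1.7, 1.3 and 1.22 in the primed libraries, a difference of 0.42 (adjusted p = 0.313). The fragment has 334 bp and its level is the mean of 2 tiles that reach into its neighbours, including the last tile of the PAX2 bait. The GOT1 bait, contacted by NKX2-3 in naive PSCs, was lower in primed PSCs in 4 of its 5 tested tiles and was under the filter as a whole fragment.

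Among the listed genes, H3K4me1 at their own baits could be tested for 6 of the 20 developmental regulators, of which 2 (GATA3 and CYP26A1) were higher in primed PSCs and 0 lower, and for 1 of the 23 broadly expressed genes, which did not pass. Over all fragments tested, 21.5% were called higher and 32.9% lower. So few tested genes set no contrast between the lists. The regulators that members contacted were not among those called, but the contacted baits of VAX1, EMX2 and HMX3 were under the filter. HHEX had no bait in the lists. In a fit without the filter, the VAX1 bait was higher in primed PSCs by 1.39 (limma, adjusted p = 0.00234). Those of EMX2 and HMX3 differed by −0.33 and 0.15 (adjusted p = 0.621 and 0.87). Several of the contacted regulators had more interactions of their own in primed PSCs. The baits of EMX2 had 4 interactions in naive and 27 in primed PSCs and those of VAX1 8 and 18, whereas FGF8 had 21 and 24. GOT1 went from 25 to 7 interactions and POLL from 18 to 5.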

How the data were processed

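The data were PCHi-C, Hi-C and H3K4me1 CUT&RUN of naive and primed PSCs (H9 NK2). NANOG, SOX2 and input ChIP-seq was not used here. PCHi-C read pairs were mapped to GRCh38 with HiCUP by the authors, who combined 2 replicates within CHiCAGO and deposited interactions with a score of at least 5, and the read number beside each score is a combined, rounded value. For Hi-C, the authors deposited di-tag counts per pair of 100 kb bins. CUT&RUN reads were trimmed by the authors with Trim Galore 0.5.0, mapped with Bowtie2 2.3.2 (versions per the submitters' processing notes) and deposited as log2 RPM per 500 bp tile. An empty tile stands at 0.9 reads, and at 0.02 tolerance 100.0% of values gave whole reads in each library, which served for an edgeR 4.0.16 alternative added after the data were seen.

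The planned design took baits from a name column. The lists have none, so GENCODE release 44 promoters were used in its place, and all 88413 fragments had HindIII ends in GRCh38. Interactions listed from both baits were merged. Fragments and tiles with log2 RPM above 0 in at least 2 libraries were compared by limma 3.58.1 (eBayes with trend, R 4.3.3), with p-values adjusted by the Benjamini-Hochberg method over all fragments or all tiles at a threshold of 0.05. Nothing in the labels says that the libraries are separate cultures beyond their replicate numbers, so p-values measure the spread between these libraries. Hi-C ratios divide by the mean of chromosome 10 pairs at the same distance, and balancing took 1276 bins over 100 rounds. Scripts were tested on simulated data. Python 3.11.15 was used.

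The members, gene lists and rule for named genes (members, contacted genes of the lists, the 3 best-scoring partners of each, per direction the 3 partners whose H3K4me1 changed most, and promoters on fragments that 3 or more baits contact) were chosen with earlier results of these data known. PAX2, FGF8 and GOT1 values outside this rule, and the blocks of partners, were chosen after values were seen. Alternatives were other scores, read numbers, distances and Hi-C scalings, and for H3K4me1 another filter, pseudocount, variance trend, centring, replicate block and each library left out.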

Additional observations from a re-analysis of the deposited data

How the results depend on the processing

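The 7 links between members in primed PSCs were 7 at a score of at least 7 or with at least 10 reads and 6 at a score of at least 10, and none was listed in naive PSCs under any of these. Interactions in naive PSCs fell from 18 to 7 and 0 at scores of 7 and 10, and those in primed PSCs from 131 to 56 at a score of 10 and to 72 with at least 10 reads. Those over 1 Mb in primed PSCs fell from 96 to 49 and 39 under the latter 2 settings and were 29 over 2 Mb. With both ends within 10 kb counted as shared, 5 primed and 11 naive interactions were common in place of 2. As the mean of 3 by 3 bins, NKX2-3 with PAX2 was at 1.03, NKX2-3 with TLX1 at 0.7, NKX2-3 with LBX1 at 1.12, PAX2 with TLX1 at 0.43, PAX2 with LBX1 at 0.51 and TLX1 with LBX1 at 0.44. Balancing moved NKX2-3 with PAX2 to 4.2 and with TLX1 to 3.43, and turned NKX2-3 with LBX1 (2.93), PAX2 with TLX1 (1.54), PAX2 with LBX1 (2.0) and TLX1 with LBX1 (1.23) from below to above the mean.

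For H3K4me1, partner fragments called higher were 16 without the filter, 9 with centred libraries and 9 in edgeR (main 5), and those called lower were 4 without the filter (main 1). Tiles of member baits called higher were 10 with centred libraries (main 6), and those called lower were 11 in edgeR and 3 with the replicate block (main 7). Partner tiles called lower were 10 with the replicate block (main 16). Leaving out 1 library gave 0 to 1 member baits lower, 0 higher, 3 to 6 partners higher, 1 lower, 3 to 7 bait tiles higher, 3 to 9 lower, 33 to 71 partner tiles higher and 3 to 18 lower. The difference at the NKX2-3 promoter bait turned to 0.19 with centred libraries, 0.09 without naive replicate 1 and 0.2 in edgeR, (−0.24 without naive replicate 2), and that at the PAX2 bait to −0.12 without naive replicate 1 (0.33 without naive replicate 2), none of them past the threshold. Over all fragments, calls higher and lower in primed PSCs were 1672 and 2558, 2336 and 2416 with centred libraries, and 2420 and 2403 in edgeR on the recovered reads. The replicate numbers did not pair the libraries (correlations of deviations 0.088 and 0.051 over 2 pairs). The causes of these shifts were not tested. PCHi-C and Hi-C have no replicate check here.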
